A study of Mus musculus with 12 samples.

Results

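The genes described here are 44 protein-coding genes of mitosis and DNA replication, chosen by symbol from the 55487 genes of the count table, and all 44 passed the filter on low counts. They were measured by RNA-Seq of whole lung in 12 *miR-30a*-/- C57BL/6J mice on postnatal day (PND) 21. Between PND 1 and PND 5 the pups breathed either 95% FiO2 (hyperoxia) or room air, and each of the 4 groups of sex and exposure held 3 lungs. Every animal carried the deletion of *miR-30a*, so the groups compare exposures and sexes within the knockout and say nothing of the deletion itself. Mir30a was listed at 0 counts in all 12 lungs, which checks no label because there is no lung with the gene to set it against. Right ventricles had been perfused with PBS before the lungs were frozen.

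A dividing cell first licenses its replication origins by loading the MCM helicase with the help of CDC6 and CDT1. Cyclin E with CDK2 then starts S phase, in which PCNA clamps the polymerases to DNA while ribonucleotide reductase and thymidylate synthase supply nucleotides. Cyclin B with CDK1 drives entry into mitosis, polo-like and Aurora kinases build the spindle, and the anaphase-promoting complex ends mitosis by marking cyclins and other proteins for destruction. In the mouse, alveoli and their capillaries are still being formed in the weeks after birth, and cell division goes on in the lung during that time. In a whole lung, fewer dividing cells and less of an mRNA per dividing cell cannot be told apart.

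Promoters of mitosis genes often hold CCAAT boxes, bound by NF-Y, and a cell cycle genes homology region (CHR), bound by the DREAM and MMB complexes, whereas those of replication genes often hold E2F sites. In RefSeq promoter windows (GRCm38.p6, 250 bases before to 50 after the start), 36 of the 44 members matched, with 38 windows. The letters CCAAT were present on either strand in 78.95% of member windows and in 37.41% of all 32851 windows. A CHR, searched as TTTGAA and in its variant form TTCGAA, was found in 77.27% of the 22 windows of mitosis members, in 18.75% of the 16 windows of replication and G1-S members and in 19.23% of all windows. An E2F core was searched in 3 forms, first as TTTGGCG, next in the form TTTCGCG and last in the form TTTCCCG, and was found in 18.18%, 43.75% and 5.58% of the same windows. A pair of CCAAT boxes on opposite strands can overlap, as in Ube2c, and a match is a match of letters only. The promoters of the 4 members with the smallest unadjusted p over both sexes are shown because the results below turn on these genes. Capitals mark CCAAT boxes, CHR elements and E2F cores on either strand, and each line reads 5′ to 3′ along the gene.
Nusap1, chr2:119618048-119618347, plus strand: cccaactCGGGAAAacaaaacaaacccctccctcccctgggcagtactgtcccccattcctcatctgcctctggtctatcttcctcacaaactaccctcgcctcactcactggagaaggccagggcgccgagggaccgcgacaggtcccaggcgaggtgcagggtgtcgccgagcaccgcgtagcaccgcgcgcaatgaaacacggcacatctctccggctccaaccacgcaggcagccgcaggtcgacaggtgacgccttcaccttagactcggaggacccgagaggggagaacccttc
Ube2c, chr2:164769679-164769978, plus strand: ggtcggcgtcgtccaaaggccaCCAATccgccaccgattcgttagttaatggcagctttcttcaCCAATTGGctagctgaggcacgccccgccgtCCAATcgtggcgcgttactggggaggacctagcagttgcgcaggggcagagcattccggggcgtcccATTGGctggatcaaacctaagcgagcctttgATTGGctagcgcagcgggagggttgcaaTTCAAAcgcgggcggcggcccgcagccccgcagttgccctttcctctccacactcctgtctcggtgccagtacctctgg
Mki67, chr7:135716330-135716629, minus strand: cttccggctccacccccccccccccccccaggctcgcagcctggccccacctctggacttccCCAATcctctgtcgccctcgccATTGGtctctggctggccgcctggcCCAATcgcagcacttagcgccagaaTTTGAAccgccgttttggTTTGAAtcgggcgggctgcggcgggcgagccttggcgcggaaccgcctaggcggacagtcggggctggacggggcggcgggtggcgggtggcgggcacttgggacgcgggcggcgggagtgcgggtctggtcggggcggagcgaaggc
Mcm3, chr1:20820263-20820562, minus strand: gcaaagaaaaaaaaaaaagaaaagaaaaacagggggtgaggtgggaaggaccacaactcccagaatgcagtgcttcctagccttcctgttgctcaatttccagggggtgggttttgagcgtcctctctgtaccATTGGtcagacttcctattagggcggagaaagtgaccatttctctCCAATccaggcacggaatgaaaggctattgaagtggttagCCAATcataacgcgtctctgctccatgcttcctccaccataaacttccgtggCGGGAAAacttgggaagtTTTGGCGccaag
Ube2c and Mki67 held the pattern of mitosis genes, with 6 CCAAT boxes and 1 CHR in Ube2c and 3 CCAAT boxes and 2 CHR elements in Mki67. Mcm3 held 3 CCAAT boxes and 2 E2F cores and no CHR. The Nusap1 window held 1 E2F core, at its upstream end, and neither of the other motifs.

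Total counts ran from 8763033 to 16741694 per lung, so that 3 counts, the floor used here, were worth 0.179 to 0.342 CPM, the unit of normalised read count used below. Lung genes such as Sftpc, Ager and Pecam1 were present in every library, and none of 75 cell type markers was at 0 in any lung. The repeat-like gene Gm10800 took 6.04% to 23.8% of all counts. The members had 54 to 1046 counts in a lung. Levels below are CPM scaled by the upper quartile of counts, with n = 3 lungs per group. Because 2003 olfactory and vomeronasal receptor genes, most of which the lung is not known to use (Olfr78 of pulmonary neuroendocrine cells is an exception), also drew reads, a background density per kilobase was estimated on them in each lung. That density times a member's exon length came to 18.3% (Mcm3) to 80.3% (Gins2) of its counts, with a median of 31.1%. It exceeded 50% in 5 members: Gins2, Ccnb1, Cenpf, Kif11 and Cdk1. Among the cell type markers it came to 0.0369% for Sftpc, 0.607% for Ager, 76.4% for Rag2, 94.5% for Dazl and 101% for Jchain. Marker counts above 0 therefore do not by themselves show a cell type. Whether the reads on receptor genes came from RNA or from genomic DNA in the libraries was not tested.

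Per kilobase of exon, the highest mean levels over the 12 lungs belonged to the helicase subunit genes Mcm3 (6.43 CPM per kilobase), Mcm4 (6.35) and Mcm7 (5.93), followed by the clamp gene Pcna (5.84) and Mki67 (5.497), the gene of a protein that coats mitotic chromosomes. The lowest belonged to Gins2 (1.48), Ccnb1 (1.86) and Cenpf (2.10). Because the background share is a fixed density per kilobase over the level, these are by construction the genes with the largest shares. Summed over the 44 members, the level was 787 ± 30.4 CPM (SD) in room air females, 795 ± 55.0 in hyperoxia females, 832 ± 32.8 in room air males and 753 ± 44.1 in hyperoxia males. These sums spanned 707 to 870 CPM over all lungs.

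**Figure D1:**
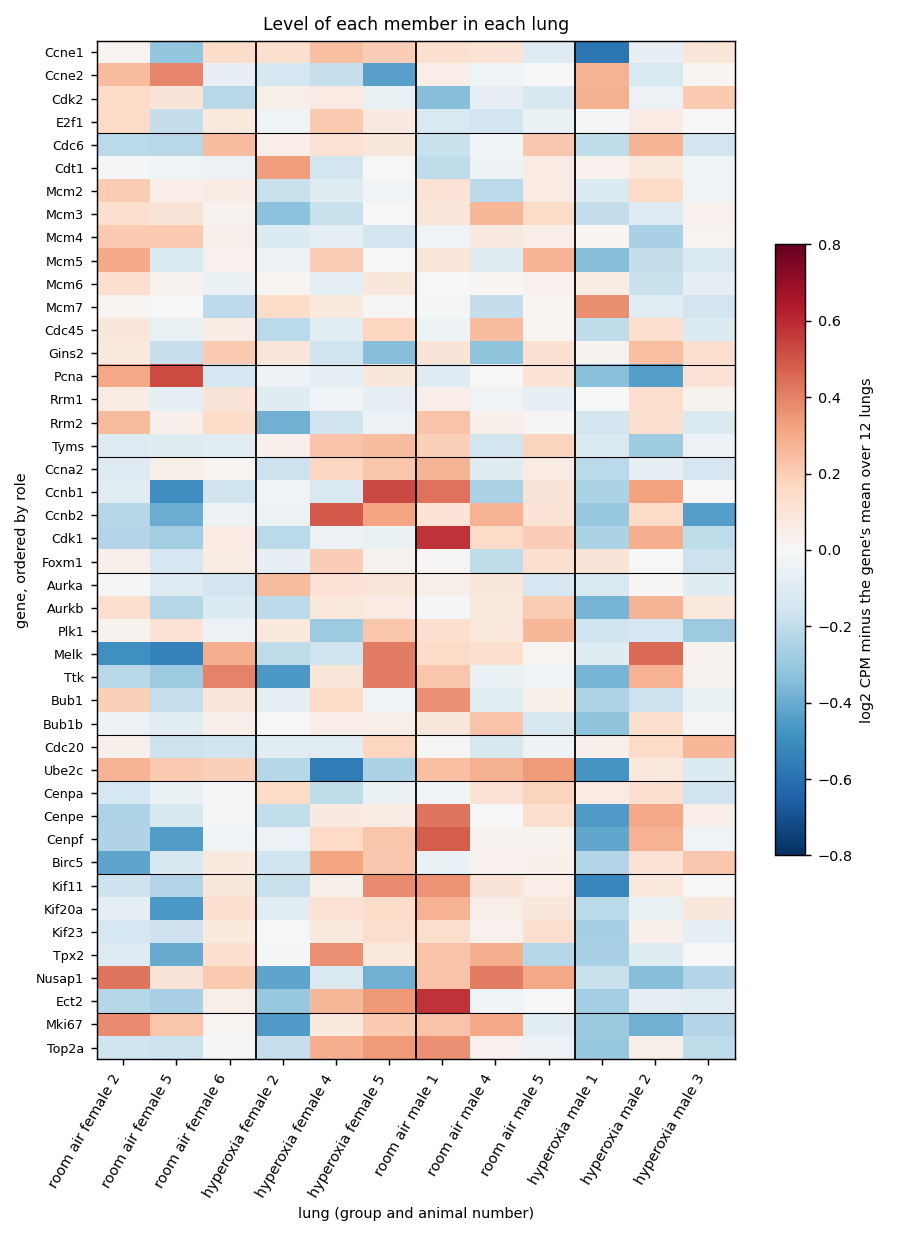
Each row is one of the 44 members, ordered by role with lines between classes, and each column is one lung; colour gives log2 CPM minus the gene's mean over the 12 lungs. Room air male 1 is warm in most rows (33 of 44 members above their mean), hyperoxia male 1 is cool in most (10 of 44), and the Nusap1 and Ube2c rows separate the exposures.

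On average over the 44 members, log2 CPM stood 0.13 above the members' means in room air male 1, where 33 of 44 were above, and 0.17 below in hyperoxia male 1, where 10 were (−0.17). The other 10 lungs lay between −0.10 (room air female 5) and 0.085 (hyperoxia female 5). Hyperoxia female 2 stood at −0.092 while hyperoxia females 4 and 5 stood at 0.032 and 0.085, so the 3 hyperoxia females lay on both sides of 0. TMM scaling put hyperoxia male 2 at −0.079 in place of 0.028.

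Over both sexes, hyperoxia against room air, 0 of the 44 members passed an adjusted p under 0.05 with a fold change over 1.5 in edgeR's quasi-likelihood test, and 5 had an unadjusted p under 0.05. All 5 were lower in hyperoxia: Nusap1, Ube2c, Mki67, Mcm3 and Rrm2. Among all 45828 genes tested, 0.00218% were called higher and 0.0393% lower, while 2.67% were higher and 2.52% lower at an unadjusted p under 0.05. The members' median log2 fold change was −0.018, with 18 above 0 and 26 below, beside a median of 0.031 and 56% above 0 over all genes. Over the alternatives given further on, the members' median lay on both sides of 0. DESeq2 called 1 member, Nusap1, among 1 gene higher and 39 lower over all genes.

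Nusap1 encodes a nucleolar and spindle-associated protein that bundles microtubules near chromosomes (ENSMUSG00000027306, chr2:119618298-119651244, plus strand, mm10). Its level was 21.3, 16.9 and 18.2 CPM in the room air females and 11.6, 14.5 and 11.9 in the hyperoxia females. In males it was 18.5, 21.0 and 19.6 CPM in room air and 13.9, 12.3 and 13.3 in hyperoxia. Each of the 6 hyperoxia lungs lay below each of the 6 room air lungs, with medians of 12.8 and 19.1 CPM, which 0.120% of all genes did in this direction. The log2 fold change was −0.58 (SE 0.10, adjusted p = 0.0196 by edgeR), a ratio of 0.671 or 1.49-fold, just short of the fold of 1.5 that a call required. It was −0.57 (SE 0.15) in females alone and −0.58 (SE 0.15) in males alone, with adjusted p of 0.239 and 1.00 by edgeR. Both sexes thus gave nearly the same value, and the difference between them was 0.01 (SE 0.21). Background made up 29.6% of its counts, and with background subtracted the change was −0.84 (SE 0.14, adjusted p = 0.0380 by edgeR), which passed both thresholds. Without room air male 1, room air female 5, room air female 6, hyperoxia male 1 or hyperoxia female 4, Nusap1 also passed both. Its adjusted p over both sexes, from each fit's own test, was under 0.05 in 16 of 22 alternatives and reached 0.172. The first bases of Nusap1 overlap Oip5 on the opposite strand; Oip5 had 3.47 to 6.97 CPM and a log2 fold change of 0.23 (SE 0.19), and whether counting used strand was not given in the sources used here.

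Ube2c encodes the ubiquitin-conjugating enzyme of the anaphase-promoting complex (ENSMUSG00000001403, chr2:164769898-164778822, plus strand). Room air lungs had 14.6, 13.9 and 13.7 CPM in females and 14.3, 14.7 and 15.3 in males. Hyperoxia lungs had 10.1, 7.99 and 9.97 CPM in females and 8.49, 12.7 and 11.1 in males. Here too no hyperoxia lung reached the lowest room air lung. The log2 fold change over both sexes was −0.53 (SE 0.12, adjusted p = 0.125 by edgeR), so it did not pass; it was −0.58 (SE 0.16) in females and −0.47 (SE 0.16) in males. With background subtracted it was −0.68 (SE 0.16, adjusted p = 0.303 by edgeR), and without hyperoxia male 2 it passed both thresholds. Tnnc2, which overlaps the far end of Ube2c on the opposite strand, had only 0.960 to 2.07 CPM.

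**Figure D2:**
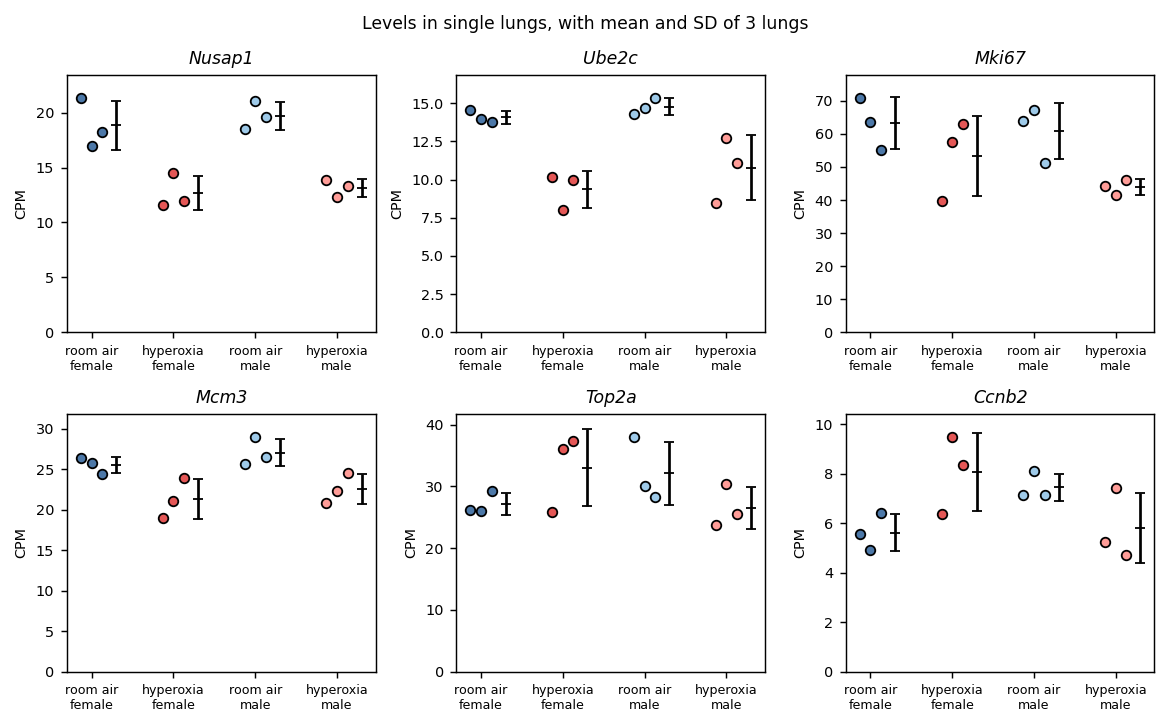
Points are the 3 lungs of each group in CPM for 6 members, and the bar beside them is the mean with SD. Hyperoxia lungs lie below room air lungs in both sexes for Nusap1, Ube2c and Mcm3, below in males alone for Mki67, and on opposite sides in the sexes for the means of Top2a and Ccnb2.

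Mki67, the standard proliferation marker, and Mcm3 followed with smaller differences that did not pass. Mki67 was 70.8, 63.5 and 55.1 CPM in room air females and 39.6, 57.4 and 62.9 in hyperoxia females. Males had 63.8, 67.3 and 51.2 CPM in room air and 44.2, 41.5 and 46.2 in hyperoxia. The groups overlapped in females and not in males, and the log2 fold change was −0.36 (SE 0.13, adjusted p = 0.927 by edgeR) over both sexes, −0.25 (SE 0.19) in females and −0.47 (SE 0.19) in males. The female value ran from −0.38 to −0.076 over the alternatives. Mcm3, chosen for its values here, was 24.4 to 26.3 CPM in room air females against 18.98 to 23.9 in hyperoxia females, and 25.7 to 29.0 against 20.9 to 24.5 in males. The exposures were thus apart within each sex, touched across sexes, and gave −0.26 (SE 0.10) over both.

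RNA from red blood cells moved with the same split of lungs. The summed level of 9 erythroid markers was 1285 to 4688 CPM in hyperoxia and 5165 to 7948 CPM in room air, without overlap, and those called lower included Alas2, Hbb-bt and Hba-a2. The precursor regulators Gata1 (6.57 to 16.4 CPM) and Klf1 (5.22 to 6.94 CPM) were not at 0 in any lung and were not called. The estimated background came to 26.5% and 29.0% of their counts. Of 9 markers, 7 had a log2 fold change below 0, with a median of −1.17. Nusap1 and Ube2c are also used by dividing red cell precursors, and the part of red cell RNA in their difference was not tested. Thymocyte markers, another possible source of dividing cells, were apart in females, at 187 to 189 CPM in room air and 199 to 223 CPM in hyperoxia, and overlapped in males, at 198 to 214 and 185 to 206 CPM. Markers of T cells likewise summed to 80.04 to 82.1 CPM in room air females and 84.2 to 93.7 CPM in hyperoxia females. The estimated background came to 6.14% (Tcf7) to 76.4% (Rag2) of the counts of thymocyte markers, and these sums include it. Their part in the female values was not tested.

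**Figure D3:**
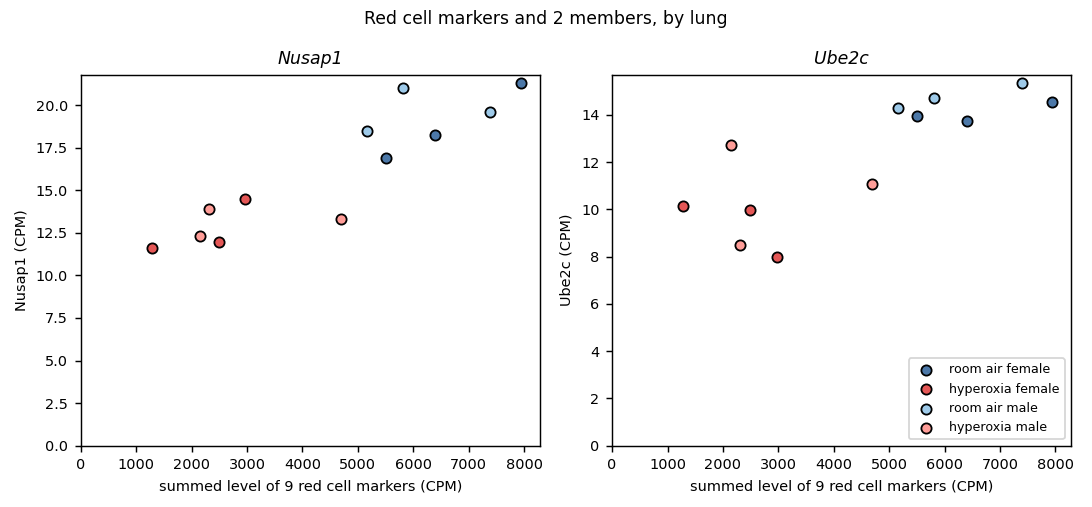
Each point is a lung, with the summed CPM of 9 red cell markers on the x axis and the CPM of Nusap1 (left) or Ube2c (right) on the y axis. Hyperoxia lungs (1285 to 4688 CPM of markers) occupy the lower left and room air lungs (5165 to 7948 CPM) the upper right of both panels.

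In females, hyperoxia against room air, 0 of 44 members were called, beside 0% of all genes called higher and 0.00218% lower. RUVr with 1 factor called 1543 of all genes higher and 364 lower in this contrast, and 1 member, Ube2c. Without room air female 6 the counts over all genes were 93 and 113. At an unadjusted p under 0.05, 1 member was higher (Ccnb2) and 4 were lower (Nusap1, Ube2c, Ccne2 and Rrm2), beside 7.32% and 5.28% of all genes. The members' median log2 fold change was 0.068 (27 above 0, 17 below), while the median of all genes was 0.114, of which 60.8% were above 0. With DESeq2's scaling the members' median was −0.025 and that of all genes 0.020. The exposures did not overlap in 9 members: Tyms and Aurka were higher in hyperoxia, and Ccne2, Mcm2, Mcm3, Mcm4, Rrm2, Ube2c and Nusap1 were lower. Over all genes, 10.8% were apart and higher and 6.42% apart and lower. DESeq2 called 0 members, and 0 of all genes higher and 44 lower. Lung tissue markers moved with this contrast as well: all 10 lung tissue markers had a log2 fold change below 0 (median −0.51), and their sum was 11123 to 21463 CPM in room air females and 10036 to 10913 CPM in hyperoxia females, without overlap. In males 7 of the 10 were above 0 and the sums overlapped. The share of counts on Gm10800 was 9.52%, 6.04% and 16.6% in room air females and 15.5%, 22.4% and 21.5% in hyperoxia females. Whether the markers differed through cell content or through such library composition, and the part of either in the members' values, was not tested.

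By role, the female values are set here beside the all-gene median of 0.114, and no test of a class was made. That median was itself 0.047 without room air female 5, 0.193 without room air female 6 and 0.0026 with the receptor share of each lung (described further on) as a covariate, and the members' median was 0.034, 0.090 and −0.052 in the same fits. The genes tested also include 1794 autosomal receptor genes of those used for the background. With background subtracted the all-gene median was 0.066, over 38224 genes. The comparisons below use 0.114. Of the 10 origin licensing and helicase genes, 7 had a log2 fold change below 0 (median −0.050), and of the 4 genes of the clamp and nucleotide supply 3 did (median −0.19). All 4 centromere genes (median 0.20) and 5 of 6 spindle and cytokinesis genes (median 0.19), with Nusap1 as the exception, were above 0, and these medians lay above that of all genes by 0.090 and 0.080. The other mitotic classes had medians below that of all genes. All 5 genes of mitotic cyclins, CDK1 and FOXM1 were above 0 (median 0.091), as were 5 of 7 mitotic kinases and checkpoint genes (median 0.063), while Mki67 and Top2a had a median of 0.019 and Ube2c and Cdc20 one of −0.24. The counts above 0 depended on the scaling: with DESeq2 2 of the 5 mitotic cyclin genes were above 0 (median −0.0094), and with the receptor covariate 1 of 6 spindle genes was (median −0.028). Of the licensing and helicase genes 3 of 10 were above 0 in each of these fits, but not the same genes: with the covariate Cdc6 went from 0.14 to −0.066 and Mcm6 from −0.022 to 0.054. With background subtracted instead, Ccnb2, Ccnb1, Ccna2, Foxm1 and Cdk1 had 0.78, 0.62, 0.12, 0.085 and −0.22 in females. Of the spindle genes, Tpx2, Ect2, Kif20a, Kif23 and Kif11 then had 0.42, 0.40, 0.21, 0.21 and 0.20, and Nusap1 had −0.80.

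In males, hyperoxia against room air, 0 of 44 were called by edgeR or DESeq2, as were 0% of all genes in either direction. At an unadjusted p under 0.05, Cdk2 was higher and Nusap1, Ube2c, Mki67, Plk1, Cdk1 and Mcm5 were lower, beside 0.899% of all genes higher and 1.80% lower. The median log2 fold change was −0.14, with 11 above 0 and 33 below, beside −0.011 and 48% above 0 over all genes. All 6 spindle and cytokinesis genes (median −0.28), all 5 of the mitotic cyclin class (median −0.24) and 6 of 7 mitotic kinases and checkpoint genes (median −0.086) were below 0. Of the G1-S class, 3 of 4 were above 0 (median 0.098). The exposures were apart in 10 members, with Cdk2, E2f1 and Cdc20 higher and Mcm3, Mcm5, Plk1, Ube2c, Nusap1, Ect2 and Mki67 lower; 2.73% of all genes were apart and higher and 3.89% apart and lower. Skeletal muscle markers summed to 1777 CPM in room air male 1 and to 65.9 to 103 CPM in the other 11 lungs, so 1 of the 3 male controls held muscle RNA. Without that lung the members' median in males was −0.13, with 14 above 0 and 30 below. It was −0.080 without hyperoxia male 1 and −0.22 without hyperoxia male 2, in each case with most members below 0.

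**Figure D4:**
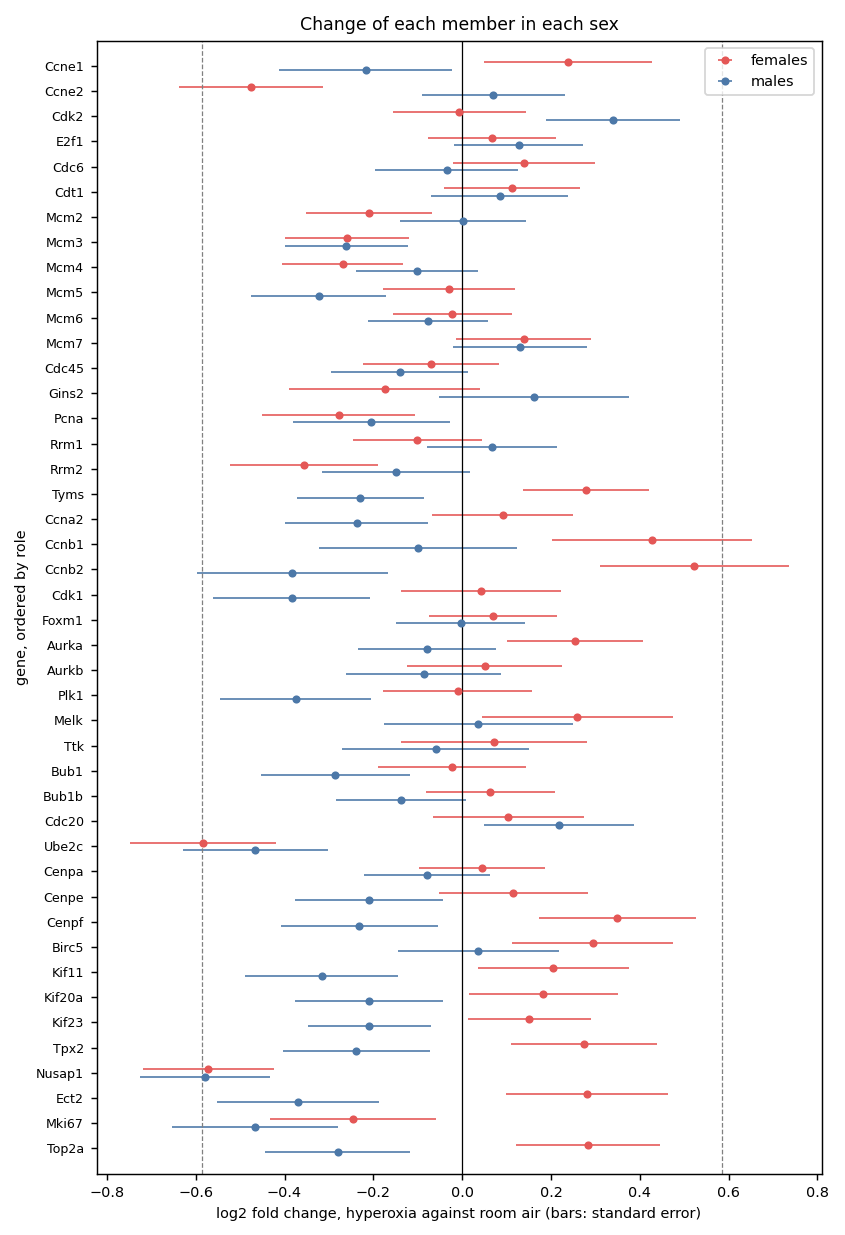
Points give the log2 fold change of hyperoxia against room air in females (red) and males (blue) for each member, with standard errors, and dashed lines mark a fold of 1.5. Nusap1 and Ube2c lie at the left in both sexes, while Ccnb2, Ect2, Top2a and Tyms lie right of 0 in females and left of 0 in males.

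The difference between the female and the male change was tested as an interaction, which called 0 of 44 members and 0% of all genes in either direction. At an unadjusted p under 0.05, 7 members had a more positive change in females (Ccnb2, Ect2, Tyms, Top2a, Cenpf, Tpx2 and Kif11) and 1 a more negative one (Ccne2), beside 6.06% and 2.40% of all genes. The members' median difference was 0.19 (33 above 0, 11 below), beside 0.12 and 58.6% above 0 over all genes. With background subtracted the all-gene median was 0.035, the 7 named members had 0.78 to 1.29 and Ccne2 had −0.72. With the receptor covariate the all-gene median was 0.013, the same 7 had 0.14 to 0.66 and Ccne2 had −0.24. RUVr, a correction for unwanted variation named in the study's methods, called 3 members (Ccnb2, Cenpf and Ect2) with 1, 2 or 3 factors. With 1 factor it called 1527 of all genes higher and 585 lower in the interaction, against 0 and 0 without it. DESeq2 called 0.

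Ccnb2, a cyclin B gene, led the interaction. It was 5.55, 4.90 and 6.40 CPM in room air females and 6.39, 9.47 and 8.34 in hyperoxia females. Males had 7.14, 8.09 and 7.15 CPM in room air and 5.24, 7.40 and 4.73 in hyperoxia. Hyperoxia lungs were thus mostly higher in females and mostly lower in males, with 1 lung overlapping in each sex. The changes were 0.52 (SE 0.21) and −0.38 (SE 0.22), and their difference was 0.90 (SE 0.30, adjusted p = 0.578 by edgeR). Ccnb2 had 64 to 97 counts in a lung, and the pseudogene Ccnb2-ps, with which it could share reads, had 2.88 to 6.39 CPM, so its counts are uncertain.

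Ect2, which activates RhoA for cytokinesis, was 12.4, 12.1 and 15.1 CPM in room air females and 11.7, 17.7 and 18.6 in hyperoxia females. In males it was 22, 14.3 and 14.6 CPM in room air and 11.96, 13.8 and 13.7 in hyperoxia. The value of 22 came from room air male 1, the lung with muscle RNA. The difference of the changes was 0.65 (SE 0.26, adjusted p = 0.578 by edgeR). It was 0.28 with the receptor covariate, 1.07 with background subtracted and 0.42 without room air male 1. Tyms, thymidylate synthase, was 16.5, 16.6 and 16.7 CPM in room air females and 18.3, 20.9 and 21.2 in hyperoxia females, without overlap. Males overlapped, at 20.3, 16 and 20.2 CPM in room air and 16.4, 14.5 and 17.2 in hyperoxia. Its interaction was 0.51 (SE 0.20, adjusted p = 0.578 by edgeR), and the pseudogene Tyms-ps could share its reads. Over the alternatives that interaction ran from 0.39 to 0.82, the highest with background subtracted.

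Among the G1-S genes, the cyclin E genes Ccne1 and Ccne2 had values of opposite sign in females. Ccne2 was 15.8, 17.4 and 12.6 CPM in room air females and 11.9, 11.5 and 9.62 in hyperoxia females, a log2 fold change of −0.48 (SE 0.16, adjusted p = 0.348 by edgeR). Males had 13.7, 12.9 and 13.2 CPM in room air and 16.1, 12.1 and 13.4 in hyperoxia, a change of 0.07 (SE 0.16). Ccne2 overlaps Ints8, which had 40.1 to 62.9 CPM. Ccne1 was 9.14, 7.19 and 10.03 CPM in room air females against 9.88, 10.8 and 10.4 in hyperoxia females, a change of 0.24 (SE 0.19). In males it was 9.88, 9.74 and 8.35 CPM against 5.83, 8.60 and 9.67, a change of −0.22 (SE 0.19). Over the alternatives that male change ran from −0.38 to −0.018. Neither gene passed in either sex. With the receptor covariate both female values were below 0, at −0.0025 for Ccne1 and −0.24 for Ccne2. With background subtracted they were 0.35 and −0.66.

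Of the replication genes, Mcm2, a subunit of the helicase, was 29.2, 26.2 and 26.4 CPM in room air females and 22.3, 23.6 and 24.8 in hyperoxia females, which did not overlap (log2 −0.21, SE 0.14). Males had 27.5, 21.8 and 26.5 CPM against 23.3, 28.2 and 24.7, with a change of 0.0021 (SE 0.14). The helicase genes Mcm3 (−0.26, SE 0.14) and Mcm4 (−0.27, SE 0.14) were also apart in females. Rrm2, the regulated subunit of ribonucleotide reductase, was the only gene of these 2 replication classes that was lower in females at an unadjusted p under 0.05. Its female levels were 12.4, 10.6 and 11.5 CPM in room air against 7.78, 9.17 and 9.97 in hyperoxia (log2 −0.36, SE 0.17, adjusted p = 0.389 by edgeR). Its male levels overlapped, at 12.1, 10.6 and 10.4 CPM against 9.23, 11.3 and 9.45 (log2 −0.15, SE 0.17). Pcna was more scattered than either. It was 17.2, 20.04 and 12.5 CPM in room air females against 13.4, 13.02 and 14.7 in hyperoxia females, and 12.8, 13.8 and 14.9 against 10.9, 10.01 and 14.99 in males. Its change over both sexes was −0.24 (SE 0.12), and 2 pseudogenes, Pcna-ps1 and Pcna-ps2, could share its reads.

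Among the drivers of mitosis, Ccnb1 was 7.18, 5.28 and 6.79 CPM in room air females and 7.52, 7.0 and 11.3 in hyperoxia females (log2 0.43, SE 0.22). That change was 0.061 with the receptor covariate and 0.62 with background subtracted. Males had 10.5, 6.35 and 8.27 CPM against 6.35, 9.69 and 7.68 (log2 −0.10, SE 0.22). These levels are low, and the estimated background came to 65.0% of the gene's counts. Plk1, polo-like kinase 1, was nearly level in females, at 10.4, 11.1 and 9.88 CPM in room air and 10.8, 8.28 and 12.03 in hyperoxia. In males it was 11.2, 10.9 and 12.4 CPM in room air and 9.08, 9.25 and 8.27 in hyperoxia, without overlap (log2 −0.38, SE 0.17, adjusted p = 1.00 by edgeR). Top2a, the topoisomerase that untangles replicated chromosomes, went opposite ways in the sexes without passing. It was 26.2, 26.02 and 29.2 CPM in room air females against 36.0 and 37.3 in hyperoxia females 4 and 5 and 25.8 in hyperoxia female 2. Males had 37.9, 30.1 and 28.3 CPM against 23.7, 30.4 and 25.5. The changes were 0.28 (SE 0.16) and −0.28 (SE 0.16). They were 0.061 and −0.23 with the receptor covariate, and 0.44 and −0.45 with background subtracted. The 37.9 CPM came from room air male 1, the lung with muscle RNA, and the male change ran from −0.45 to −0.14 over the alternatives.

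Between the sexes, with both exposures joined, 0 of 44 members were called by edgeR or DESeq2, beside 1.01% of all genes higher and 0.207% lower in females. Of the members, 22 were above 0 and 22 below, with a median of 0.00079, and 1, Cdk1, was lower in females at an unadjusted p under 0.05, beside 4.05% of all genes higher and 2.83% lower. Over all genes 43.3% were above 0 and 56.7% below. No member was apart between the 6 female and the 6 male lungs, beside 0.886% of all genes apart and higher in females and 0.312% apart and lower. Cdk1, the kinase that drives mitosis, was 9.75, 9.41 and 12.1 CPM in room air females and 9.88, 11.1 and 11.1 in hyperoxia females. Males had 17.5, 12.9 and 13.3 CPM in room air and 9.60, 14.3 and 9.97 in hyperoxia. Room air males were thus the highest group, and the sexes overlapped. The female minus male value was −0.27 (SE 0.13, adjusted p = 0.660 by edgeR), and it was −0.16 with the receptor covariate and −0.51 with background subtracted. Cenpe, a kinetochore motor, was 19.6, 21.3 and 23.1 CPM in room air females, 20.3, 24.6 and 24.4 in hyperoxia females, 31.6, 23.3 and 25.7 in room air males and 16.9, 29.0 and 24.2 in hyperoxia males. Its female minus male value was −0.17 (SE 0.12), −0.043 with the covariate and −0.29 with background subtracted. That of Pcna was 0.23 (SE 0.12), and 0.15 with the covariate. None of the 44 members lies on chromosome X, where 456 of the genes called higher in females lay. Among 43775 autosomal genes 5 were called higher in females and 5 lower. The other all-gene shares given here also include X genes.

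The share of background in a member's counts moved with its female change. The 22 members with the larger background shares had a median log2 fold change of 0.13 in females (17 above 0), and the 22 with the smaller shares had −0.0082 (10 above 0). In males the medians were −0.21 and −0.12. Counts on the receptor genes made up 0.453% to 0.819% of all counts in room air females and 0.738% to 0.936% in hyperoxia females, and 0.709% to 0.996% and 0.569% to 1.04% in the room air and hyperoxia males. When this share entered the fit as a covariate, the members' median in females was −0.052, with 16 above 0 and 28 below. That share also carries library composition, so its own part in the values was not separated. With the covariate, the changes of Nusap1 and Ube2c over both sexes were −0.56 and −0.57. Subtracting background instead gave other female values, beside an all-gene median of 0.066. The 5 members with over 50% background, Gins2, Ccnb1, Cenpf, Kif11 and Cdk1, then had −1.73, 0.62, 0.43, 0.20 and −0.22. With the covariate they had −0.33, 0.061, 0.0056, −0.11 and −0.24.

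**Figure D5:**
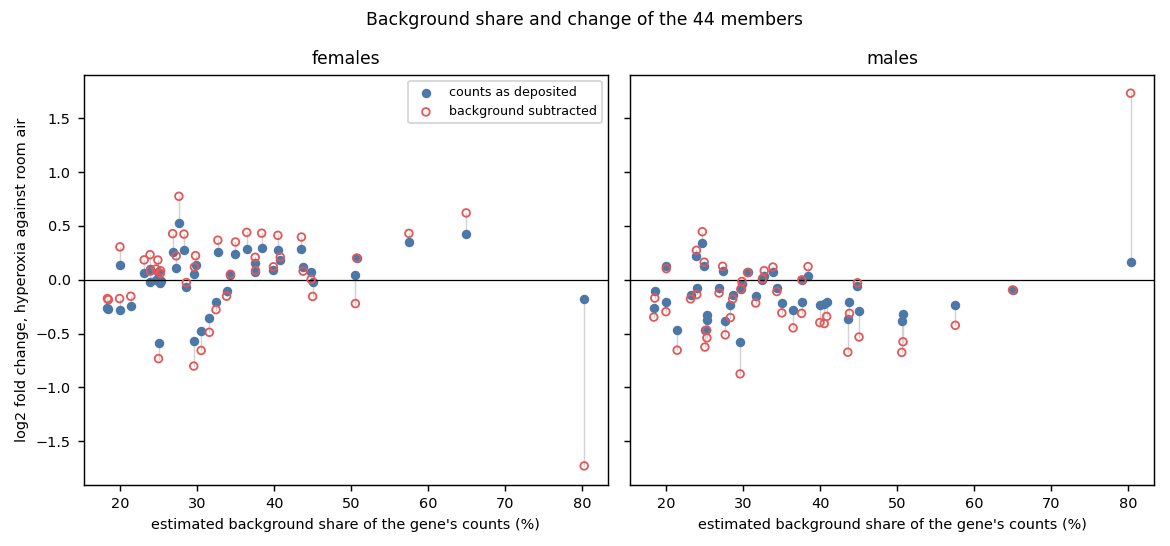
Each member is placed by its estimated background share (x axis, percent) and its log2 fold change in females (left) or males (right), with counts as deposited (filled) and with background subtracted (open), joined by a line. Subtraction takes Nusap1 to −0.80 in females and −0.87 in males, and Gins2, at 80.3% background, reaches −1.73 in females and 1.73 in males with standard errors of 1.21 and 1.24.

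The rest of the cell cycle was read from 123 further genes in 5 lists chosen by function, all of which were tested. None was called in the exposure contrasts. At an unadjusted p under 0.05, 1 was higher and 5 lower over both sexes, 12 and 7 in females, and 1 and 2 in males, beside 2.67% and 2.52%, 7.32% and 5.28%, and 0.899% and 1.80% of all genes. Ccnd1, cyclin D1, which carries growth signals to the cycle before S phase, had the smallest p. It was 81.3, 77.7 and 51.7 CPM in room air females and 42.3, 42.0 and 44.8 in hyperoxia females. In males it was 46.5, 60.3 and 43.4 CPM in room air and 42.8, 27.9 and 33.1 in hyperoxia. Each hyperoxia lung lay below each room air lung within each sex. The log2 fold change was −0.62 (SE 0.14, adjusted p = 0.133 by edgeR) over both sexes, −0.71 (SE 0.19) in females and −0.53 (SE 0.20) in males. DESeq2 called it over both sexes, among 1 gene higher and 39 lower, as did RUVr with 1, 2 or 3 factors, among 53 to 79 higher and 38 to 46 lower. Over all 22 alternatives its adjusted p over both sexes reached 0.726. The female change ran from −0.89 (without room air female 6) to −0.35 (with the receptor covariate).

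In the same list, Ccnd2 had −0.44 (SE 0.16) over both sexes, and 7 of the 8 G1 cyclin and kinase genes were below 0 (median −0.16). In females 7 of 8 were below 0 (median −0.35) and in males 4 of 8 (median 0.017), and with the receptor covariate the median over both sexes was −0.056. Of the 17 pocket protein, E2F and DREAM genes, 13 were below 0 over both sexes (median −0.11), 12 in females (median −0.17) and 8 in males (median 0.017), and with the covariate the median over both sexes was −0.042. Among them was E2f2, an activating E2F gene, at −0.34 (SE 0.12). CDK inhibitor genes, which stop the cycle and whose Cdkn1a responds to p53, had no member with an unadjusted p under 0.05 in any exposure contrast. Over both sexes Cdkn1a had −0.12 (SE 0.11), Cdkn1b −0.022 (SE 0.16) and Cdkn1c 0.026 (SE 0.14). By sex these were −0.27 (SE 0.16), −0.32 (SE 0.22) and −0.21 (SE 0.19) in females and 0.036 (SE 0.16), 0.28 (SE 0.22) and 0.26 (SE 0.19) in males. The median of the 7 genes over both sexes was 0.026, and 0.14 with the receptor covariate. In the list of 52 other mitosis genes, 33 were above 0 over both sexes (median 0.053), 41 in females (median 0.17) and 17 in males (median −0.043). The medians lay 0.022 and 0.055 above those of all genes over both sexes and in females, where 56% and 60.8% of all genes were above 0, and 0.032 below in males (−0.032). With the receptor covariate 25 were above 0 in females (median −0.0075). Cdc25b, the phosphatase that activates CDK1, was among the 19 genes of this list below 0 over both sexes. It had −0.36 (SE 0.11), with 32.5 to 38.8 CPM in hyperoxia and 38.9 to 52.6 in room air. Among 39 other replication genes, 18 were above 0 over both sexes and the lowest unadjusted p belonged to Pola1 (−0.14, SE 0.10).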

How the data were processed

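RNA-Seq libraries of 12 whole lungs were analysed, 3 per group by sex and exposure as titled in the labels. Per the labels, the authors used Trim Galore for trimming and STAR for mapping (mm10, GRCm38), and deposited raw gene counts from featureCounts; versions and the strand setting are not given in the sources used here, and the labels and the paper name different stranded kits. Counts were fitted with edgeR 4.0.16 in R 4.3.3 (4 group means, upper-quartile scaling, filterByExpr, robust quasi-likelihood test; limma 3.58.1 and DESeq2 1.42.0 for alternatives), with Benjamini-Hochberg adjustment over the 45828 genes tested. A call needed an adjusted p under 0.05 and a fold over 1.5. The fit was tested on simulated counts with known changes. The samples that entered the authors' batch correction (CombatSeq) and the number of RUVr factors are not given in the sources used here, so both were left out of the main analysis. Background was the median reads per kilobase on 2003 receptor genes times exon length, with lengths from GENCODE M21 for 55141 of 55487 genes.

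The members, lists and rules were chosen with earlier results of these data known. Values in every lung were given for 8 members chosen by role (Mki67, Top2a, Ccnb1, Plk1, Mcm2, Pcna, Ccne1 and Rrm2) and for the 3 members with the smallest unadjusted p in each of 5 contrasts. Of other cell cycle genes, those called, the 2 with the smallest p per list and contrast, and Cdkn1a, Cdkn1b, Cdkn1c and Ccnd1 could be named. Alternatives were TMM scaling, DESeq2, a likelihood ratio test, other filters, RUVr, the receptor share as a covariate, background subtraction, each sex alone, no fold threshold and leaving out each lung. Promoters came from RefSeq. The numbers 2 and 5 occur in both female groups; the deviations of same-numbered lungs correlated at 0.094 and −0.22 over genes, and the labels do not say what a number marks, so they were not taken as pairs.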

Additional observations from a re-analysis of the deposited data

Results flagged for a closer look

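Of 88 sets of 6 lungs (44 members in each exposure), 4 held 1 lung set far apart from the other 5; chance alone gives about 1 in 20. Cdk1 was 14.3 CPM in hyperoxia male 2, with the next hyperoxia lung at 11.1 and the lowest at 9.60. Bub1b, a spindle checkpoint kinase gene, was lowest in hyperoxia male 1, at 17.5 CPM against 21.8 to 24.1 in the other 5. Ect2 was 22 CPM in room air male 1, above 15.1 in the next lung, and Top2a was 37.9 CPM in the same lung, above 30.1.

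Among the marker sums, skeletal muscle markers reached 1777 CPM in room air male 1, with 68.4 to 95.3 in the other 5 room air lungs. Alveolar macrophage markers reached 393 CPM in room air female 5, with 151 to 233 in the other 5. Whether these cell contents bear on the member values of the same lungs was not tested.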

How the results depend on the processing

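For the 3 members with the smallest p in each contrast and Ccnd1, the direction was the same under each alternative. Of the 8 members chosen by role, some values near 0 changed side: Top2a and Ccne1 over both sexes (0.0012 and 0.01, ranges −0.085 to 0.076 and −0.083 to 0.11), Plk1 in females (−0.01, range −0.13 to 0.12), and in males Mcm2 (0.0021, range −0.083 to 0.069) and Ccnb1 (−0.10, range −0.25 to 0.10, above 0 without room air male 1 or hyperoxia male 1). Ccne1 in females went from 0.24 to −0.0025 with the receptor covariate. Over both sexes, the count of 0 members called became 1 (Nusap1) with TMM scaling, DESeq2, no filter on low counts, background subtraction or the adjusted p alone. Over all genes TMM, DESeq2, no filter and background subtraction each called 1 higher, and 19, 39, 23 and 9 lower. When each lung was left out in turn the count of members called ran from 0 to 1: Nusap1 was called without room air male 1, room air female 5, room air female 6, hyperoxia male 1 or hyperoxia female 4, and Ube2c without hyperoxia male 2. The leave-out fits with a member called had 0 or 1 of all genes called higher and 16 to 36 lower. Over 22 alternatives Nusap1 ranged from −0.84 to −0.52, with an adjusted p from 5.7e-07 to 0.172, under 0.05 in 16. Ube2c ranged from −0.68 to −0.45, with an adjusted p from 4.3e-05 to 0.566. In females the count became 1 (Ube2c) with RUVr with 1 or 2 factors, a fit that called 1543 or 1550 of all 45828 genes higher and 364 or 363 lower. In males the count became 1 (Nusap1) with the share of receptor counts as covariate, a fit that called 1 of all genes higher and 5 lower. The interaction count became 3 with RUVr with 1, 2 or 3 factors, beside 1527 to 1758 of all genes higher and 585 to 640 lower. Median log2 fold changes moved to −0.052 in females with the receptor covariate, and for the interaction to 0.088 with DESeq2 and 0.066 with the receptor covariate. The members' median over both sexes ran from −0.088 to 0.022 over all alternatives, on both sides of 0. The cause of these shifts was not tested.

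Of the 123 further cell cycle genes, 1 (Ccnd1) was called over both sexes with DESeq2, the likelihood ratio test or RUVr with 1, 2 or 3 factors, and when leaving out each lung the count ran from 0 to 1 (Ccnd1 without room air female 6 or hyperoxia male 1). Over all genes the likelihood ratio test called 2 higher and 35 lower, and the named leave-out fits 1 higher each, and 31 and 36 lower. In females the count of the 123 genes called was 3 (Ccnd1, Ccnd2 and Cenpm) with RUVr at each number of factors, beside 1543 to 1668 of all genes higher and 363 to 385 lower in those fits. Leaving out each lung it was 0 to 1 (Ccnd1 without room air female 6, beside 93 of all genes higher and 113 lower). In males it was 1 (Ccnd1) with the receptor covariate, beside 1 of all genes higher and 5 lower. With TMM the mean deviation of the members in hyperoxia male 2 was −0.079 in place of 0.028. On the given strand alone, 52.63% of member windows and 21.14% of all windows held CCAAT. A fit with the replicate number as a block in females gave 0 calls and a median of 0.066, and none was made in males, who share 1 number.

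Standard errors of single members within a sex were 0.13 to 0.22 on the log2 scale, with 3 lungs in each group and 54 to 1046 counts per member and lung; the parts of depth and of the spread between lungs were not separated.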

Other observations

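Of the 123 other cell cycle genes, 3 had an adjusted p under 0.05 between the sexes by edgeR, all higher in females and all on chromosome X. Kif4, a chromosome-associated kinesin gene, was 12.8 to 19.4 CPM in 6 female lungs and 7.02 to 10.7 in 6 male lungs (log2 0.92, SE 0.12, adjusted p = 2.4e-05). Cenpi, a kinetochore gene, was 9.34 to 17.9 CPM in females and 5.54 to 10.6 in males (log2 0.79, SE 0.16, adjusted p = 0.00485), with overlap. Pola1, of DNA polymerase alpha, was 23.3 to 28.8 CPM in females and 15.2 to 21.5 in males (log2 0.56, SE 0.10, adjusted p = 0.00133), under the fold of 1.5. Their estimated background shares were 53.0%, 61.4% and 48.4%. No other of the 123 genes lies on chromosome X, and 0 of the 120 on autosomes were called between the sexes.

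The same direction was seen across chromosome X. Of 1802 genes tested on X, 456 were called higher in females and 0 lower, with a median log2 female minus male value of 0.75, whereas 5 and 5 of 43775 autosomal genes were called. Among the receptor genes used to estimate background, the 9 tested on X had a median of 0.95, with 5 called higher, and the 1794 on autosomes had −0.16. Whether part of these reads came from genomic DNA was not tested, so the values of Kif4, Cenpi and Pola1 may not be those of mRNA alone.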
